A study of Mus musculus with 8 samples.

Results

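The sterol synthesis genes described here are *Hmgcs1*, *Mvd*, *Idi1*, *Fdps*, *Fdft1*, *Sqle*, *Lss* and *Srebf2*, chosen by gene symbol from the table of counts. They are 8 of its 55450 genes, and all 8 passed the filter on low counts that left 21451 genes for testing. The 8 libraries are RNA-sequencing of CD45-EpCAM+ thymic epithelial cells (TECs) sorted from mouse embryos at embryonic day 17 (E17). All embryos carried RANK-Venus, a transgenic reporter of *Tnfrsf11a*, which encodes the cytokine receptor RANK, together with CCL21a-tdTomato, a reporter knocked into *Ccl21a*, which encodes the chemokine CCL21. Ccl21a+Rank- TECs (3 libraries) were tdTomato+Venus-, Ccl21a-Rank+ TECs (3 libraries) were tdTomato-Venus+ and Ccl21a-Rank- TECs (2 libraries) had neither reporter. The study's reporting checklist describes its replicates as biological. The sources used here do not state whether embryos or litters were pooled or whether the libraries of a population came from separate sorts, so p-values measure only the spread between these libraries.

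Cholesterol is built from acetyl-CoA in the mevalonate pathway. HMG-CoA synthase leads to mevalonate, which is turned into the isoprenoids isopentenyl, geranyl and farnesyl diphosphate. Farnesyl diphosphate either feeds protein prenylation, dolichol and ubiquinone or is joined to squalene, the committed precursor of lanosterol and cholesterol. Most genes of the pathway are targets of SREBP2, a membrane-bound transcription factor encoded by *Srebf2*. When membrane sterols are low, its partner SCAP carries SREBP2 to the Golgi, where proteases release the active part. When sterols are high, INSIG proteins hold the complex back, so that the level of *Srebf2* RNA and the activity of SREBP2 are different quantities. Medullary TECs are of several kinds, among them cells that display self-antigens to developing T cells and cells whose CCL21 attracts these.

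SREBP2 acts at sterol response elements, usually beside sites of NF-Y, which binds CCAAT, and of Sp1, which binds GC boxes. RefSeq promoters (GRCm38.p6, 250 bases before to 50 bases after the start) were found for 5 of the 8 genes, *Hmgcs1*, *Mvd*, *Idi1*, *Lss* and *Srebf2*, and were searched on both strands. The letters TCACNCCAC of a sterol response element occurred in 1 of the 5 promoters, that of *Hmgcs1*, and in 1.24% of all 32851 promoters of this length. CCAAT occurred in 5 of 5, against 37.4% of all promoters, and GGGCGG in 5 of 5, against 35.7%. None of the 3 strings contains another, and a match describes these letters only. The 250 bases before the start are shown for the *Hmgcs1* promoter with the match and for the *Mvd* promoter without it, because these 2 genes of the early pathway are called differently below. They are chr13:119690101-119690350 on the plus strand and chr8:122443423-122443672 on the minus strand, with capitals on the sterol response element and on CCAAT in either orientation (ATTGG on the opposite strand).
Hmgcs1: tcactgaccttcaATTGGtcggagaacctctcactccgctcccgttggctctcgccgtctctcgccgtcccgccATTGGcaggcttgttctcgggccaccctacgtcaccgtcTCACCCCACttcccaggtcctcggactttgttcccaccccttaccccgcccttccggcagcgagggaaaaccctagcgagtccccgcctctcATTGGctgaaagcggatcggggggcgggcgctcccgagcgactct
Mvd: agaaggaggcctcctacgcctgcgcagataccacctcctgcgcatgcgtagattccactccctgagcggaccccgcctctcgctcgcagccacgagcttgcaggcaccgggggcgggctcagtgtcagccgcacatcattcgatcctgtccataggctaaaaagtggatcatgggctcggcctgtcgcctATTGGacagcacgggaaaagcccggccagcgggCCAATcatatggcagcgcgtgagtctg
In *Hmgcs1* the sterol response element begins at position -137, and the nearest CCAAT boxes begin at -176 and -45. The CCAAT boxes of *Mvd* begin at -60 and -27 and those of *Idi1* at -45 and -14, where -1 is the base before the start.

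Library totals were 59677342, 46003149 and 55116934 counts for Ccl21a+Rank- replicates 1, 2 and 3. The totals were 57286773, 50146758 and 42751858 for Ccl21a-Rank+ TECs, and 67451448 and 71625319 for Ccl21a-Rank- TECs. The 8 genes took 0.0842% to 0.109% of the counts in Ccl21a+Rank- TECs, 0.131% to 0.151% in Ccl21a-Rank+ TECs and 0.0611% to 0.0616% in Ccl21a-Rank- TECs. The lowest count among them was 404, for *Mvd* in Ccl21a-Rank- replicate 1. Over all genes, replicates differed by more than sampling noise. For single genes the spread could be smaller, as for *Sqle* in Ccl21a-Rank- TECs, with an SD of 0.134% of the mean RPKM. Levels are given as reads per kilobase of exon, scaled to the library total (RPKM), which allows genes of different length to be compared. A gene was called where the edgeR quasi-likelihood adjusted p was under 0.05, the fold change was over 1.5 and the mean RPKM in the higher population was over 1.

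The epithelial markers *Epcam*, *Krt8* and *Krt18* were abundant in all 8 libraries. *Epcam* was at 59.6 ± 16.7 RPKM (SD, n = 3) in Ccl21a+Rank-, 133 ± 19.8 (n = 3) in Ccl21a-Rank+ and 72.7 ± 15.6 (n = 2) in Ccl21a-Rank- TECs. In the same order, *Krt8* was at 1361 ± 117, 573 ± 39.3 and 1506 ± 89.4 RPKM and *Krt18* at 2198 ± 304, 436 ± 43.2 and 2231 ± 98.6. Against both other populations, *Epcam* was called higher and *Krt8* and *Krt18* were called lower in Ccl21a-Rank+ TECs. *Ptprc*, which encodes CD45, reached at most 0.576 RPKM. *Tnfrsf11a* averaged 104 RPKM in Ccl21a-Rank+ TECs, 9.50 in Ccl21a+Rank- and 2.44 in Ccl21a-Rank- TECs. *Ccl21a* averaged 404, 109 and 7.89 RPKM in Ccl21a+Rank-, Ccl21a-Rank+ and Ccl21a-Rank- TECs. Its RNA was thus not absent from the Ccl21a-Rank+ libraries, and bulk values do not show which of the sorted cells held it. The 4 parathyroid markers *Pth*, *Gcm2*, *Chga* and *Casr* were high in all 3 Ccl21a+Rank- libraries and summed to 11.1 to 24.9 RPKM in the libraries of the other populations. Ccl21a+Rank- replicate 1 was highest, at 7122 RPKM beside 1750 and 1955 in replicates 2 and 3, so that leaving it out does not remove these transcripts. All 8 sterol synthesis genes were also highest in that library of the 3, and the counts of calls among these 8 and 16 other pathway genes are given with and without it where it is part of the comparison. Ccl21a-Rank+ replicate 1 had the highest summed myeloid and mesenchymal markers of its population, as given below. Of the 8 genes, 7 were highest in it among the Ccl21a-Rank+ libraries by RPKM, and 4 by RPKM over TMM-scaled library sizes.

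The mean RPKM of all 8 genes was highest in Ccl21a-Rank+, intermediate in Ccl21a+Rank- and lowest in Ccl21a-Rank- TECs, except that TMM scaling placed *Srebf2* 0.07 higher on the log2 scale in Ccl21a+Rank- than in Ccl21a-Rank+ TECs. Their summed level was 301, 260 and 270 RPKM in the Ccl21a-Rank+ libraries, 197, 149 and 160 in the Ccl21a+Rank- libraries and 105 and 106 in the Ccl21a-Rank- libraries. The sums of the 3 populations did not overlap. In bulk libraries of sorted cells, fewer cells of a type with high expression and less RNA per cell cannot be told apart. The 3 comparisons share libraries, so they are not independent of each other.

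**Figure D1:**
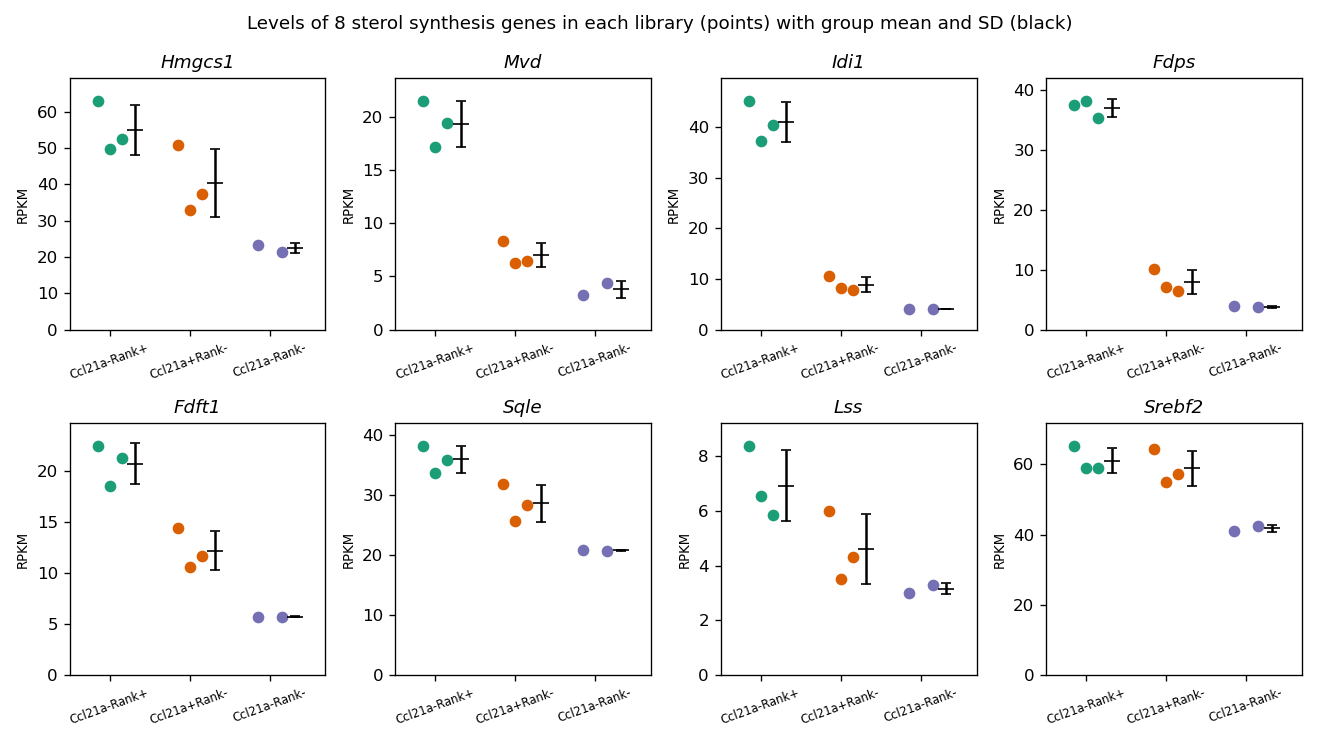
Levels of the 8 sterol synthesis genes in RPKM (linear vertical axes from 0), with 1 point per library and the mean and SD of each population in black (n = 3, 3 and 2). *Idi1* and *Fdps* stand far above the other populations in Ccl21a-Rank+ TECs, at 37.3 to 45.1 and 35.4 to 38.1 RPKM, whereas the Ccl21a-Rank+ and Ccl21a+Rank- libraries of *Srebf2* overlap.

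*Hmgcs1* (ENSMUSG00000093930.2, chromosome 13, 119690379 to 119708260, plus strand) encodes the cytosolic HMG-CoA synthase at the entry of the pathway. It was at 62.8, 49.7 and 52.4 RPKM in Ccl21a-Rank+ replicates 1 to 3, at 50.9, 32.9 and 37.3 in Ccl21a+Rank- replicates 1 to 3 and at 23.4 and 21.5 in the Ccl21a-Rank- libraries. The first 2 populations overlapped, because Ccl21a+Rank- replicate 1 lay above Ccl21a-Rank+ replicate 2, and both lay above the third. The log2 difference between Ccl21a+Rank- and Ccl21a-Rank+ TECs was -0.32 ± 0.16 (SE; edgeR adjusted p = 0.113), which was not called. *Hmgcs1* was higher than in Ccl21a-Rank- TECs by 0.84 ± 0.18 on the log2 scale in Ccl21a+Rank- TECs (edgeR adjusted p = 0.0164) and by 1.16 ± 0.18 in Ccl21a-Rank+ TECs (edgeR adjusted p = 0.000618). The first of these calls was lost when either Ccl21a-Rank- library was left out, with edgeR adjusted p of 0.06 without replicate 1 and 0.169 without replicate 2.

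*Mvd* (ENSMUSG00000006517.5, chromosome 8, 122433601 to 122443422, minus strand) encodes the decarboxylase that yields isopentenyl diphosphate. Its levels were 21.5, 17.1 and 19.4 RPKM in Ccl21a-Rank+, 8.32, 6.22 and 6.47 in Ccl21a+Rank- and 3.22 and 4.36 in Ccl21a-Rank- libraries. The 3 populations did not overlap. *Mvd* was 2.53-fold lower in Ccl21a+Rank- than in Ccl21a-Rank+ TECs (log2 -1.34 ± 0.15 SE; edgeR adjusted p = 6.72e-05) and 4.71-fold higher in Ccl21a-Rank+ than in Ccl21a-Rank- TECs (edgeR adjusted p = 9.93e-06). Its 1.86-fold higher level in Ccl21a+Rank- than in Ccl21a-Rank- TECs (edgeR adjusted p = 0.0104) was not called without Ccl21a-Rank- replicate 1 (edgeR adjusted p = 0.119).

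*Idi1* (ENSMUSG00000058258.14, chromosome 13, 8885501 to 8892451, plus strand) encodes the isomerase that makes dimethylallyl diphosphate. It was at 45.1, 37.3 and 40.5 RPKM in Ccl21a-Rank+, 10.6, 8.19 and 7.91 in Ccl21a+Rank- and 4.15 and 4.09 in Ccl21a-Rank- libraries. Every Ccl21a-Rank+ library thus lay above every other library. The difference from Ccl21a+Rank- TECs was 4.22-fold (log2 -2.08 ± 0.14 SE; edgeR adjusted p = 2.22e-06) and that from Ccl21a-Rank- TECs 9.12-fold (log2 3.19 ± 0.17 SE; edgeR adjusted p = 9.79e-07). Ccl21a+Rank- exceeded Ccl21a-Rank- TECs 2.16-fold (edgeR adjusted p = 0.00194).

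*Fdps* (ENSMUSG00000059743.12, chromosome 3, 89093588 to 89101959, minus strand) encodes farnesyl diphosphate synthase, the enzyme inhibited by nitrogen-containing bisphosphonates. Its pattern was close to that of *Idi1*, with 37.5, 38.1 and 35.4 RPKM in Ccl21a-Rank+, 10.2, 7.07 and 6.53 in Ccl21a+Rank- and 3.98 and 3.73 in Ccl21a-Rank- libraries. The populations did not overlap. *Fdps* was 4.28-fold lower in Ccl21a+Rank- than in Ccl21a-Rank+ TECs (log2 -2.10 ± 0.18 SE; edgeR adjusted p = 9.21e-06) and 8.81-fold higher in Ccl21a-Rank+ than in Ccl21a-Rank- TECs (edgeR adjusted p = 3.73e-06). It was 2.06-fold higher in Ccl21a+Rank- than in Ccl21a-Rank- TECs (edgeR adjusted p = 0.00943), a call lost without Ccl21a-Rank- replicate 2 (edgeR adjusted p = 0.116).

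*Fdft1* (ENSMUSG00000021273.10, chromosome 14, 63145150 to 63179578, minus strand) encodes squalene synthase, the branch point into sterols. It was at 22.4, 18.5 and 21.3 RPKM in Ccl21a-Rank+, 14.4, 10.6 and 11.6 in Ccl21a+Rank- and 5.66 and 5.71 in Ccl21a-Rank- libraries, again without overlap. *Fdft1* was 1.56-fold lower in Ccl21a+Rank- than in Ccl21a-Rank+ TECs (log2 -0.64 ± 0.12 SE; edgeR adjusted p = 0.00167), close to the fold threshold, and without Ccl21a+Rank- replicate 3 it fell under that threshold (log2 -0.56). It was 2.15-fold higher in Ccl21a+Rank- (edgeR adjusted p = 0.00136) and 3.35-fold higher in Ccl21a-Rank+ (edgeR adjusted p = 1.06e-05) than in Ccl21a-Rank- TECs.

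*Sqle* (ENSMUSG00000022351.14, chromosome 15, 59315077 to 59331192, plus strand) encodes squalene epoxidase, a rate-limiting step on the way from squalene to lanosterol. It was at 38.1, 33.7 and 35.9 RPKM in Ccl21a-Rank+, 31.9, 25.6 and 28.3 in Ccl21a+Rank- and 20.8 and 20.7 in Ccl21a-Rank- libraries. The populations did not overlap, but the steps between them were small. The difference between Ccl21a+Rank- and Ccl21a-Rank+ TECs was -0.21 ± 0.10 on the log2 scale (SE; edgeR adjusted p = 0.115), that between Ccl21a+Rank- and Ccl21a-Rank- TECs was 0.46 ± 0.12 and under the fold threshold (edgeR adjusted p = 0.0319), and only the 1.59-fold difference between Ccl21a-Rank+ and Ccl21a-Rank- TECs was called (edgeR adjusted p = 0.00117).

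*Lss* (ENSMUSG00000033105.12, chromosome 10, 76531588 to 76557138, plus strand) encodes lanosterol synthase, which closes the sterol rings, and had the lowest mean RPKM of the 8 genes in every population. This rank depends on the exon length used, 10787 bases for *Lss* and 1859 for *Mvd*. By counts, *Mvd* was lower than *Lss* in every library. The levels of *Lss* were 8.37, 6.56 and 5.84 RPKM in Ccl21a-Rank+, 6.0, 3.51 and 4.31 in Ccl21a+Rank- and 3.00 and 3.30 in Ccl21a-Rank- libraries. Ccl21a+Rank- replicate 1 lay above Ccl21a-Rank+ replicate 3, so these populations overlapped. The log2 difference between them was -0.47 ± 0.18 (SE; edgeR adjusted p = 0.0499), under the fold threshold, and was called without Ccl21a+Rank- replicate 1 (log2 -0.71; edgeR adjusted p = 0.0027) or without Ccl21a-Rank+ replicate 3 (log2 -0.61; edgeR adjusted p = 0.0299). *Lss* was 2.02-fold higher in Ccl21a-Rank+ than in Ccl21a-Rank- TECs (edgeR adjusted p = 0.0028), and its difference between Ccl21a+Rank- and Ccl21a-Rank- TECs was not called (log2 0.55 ± 0.20 SE; edgeR adjusted p = 0.123).

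*Srebf2* (ENSMUSG00000022463.8, chromosome 15, 82147181 to 82205379, plus strand), the regulator of the pathway, was the most abundant of the 8 genes in each population and was called in no comparison. It was at 65.2, 58.9 and 59.1 RPKM in Ccl21a-Rank+, 64.5, 55.1 and 57.2 in Ccl21a+Rank- and 41.1 and 42.4 in Ccl21a-Rank- libraries. The first 2 populations overlapped and both lay above the third. Their log2 difference was 0.07 ± 0.11 (SE; edgeR adjusted p = 0.604), whose sign turned under other scalings (-0.02 with DESeq2 size factors). *Srebf2* differed from Ccl21a-Rank- TECs by 0.50 ± 0.12 on the log2 scale in Ccl21a+Rank- (edgeR adjusted p = 0.0277) and by 0.43 ± 0.12 in Ccl21a-Rank+ TECs (edgeR adjusted p = 0.0153), both under the fold threshold and not called.

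Between Ccl21a+Rank- and Ccl21a-Rank+ TECs, the isoprenoid enzymes *Idi1*, *Fdps* and *Mvd* and the squalene synthase *Fdft1* were called, and each was higher in Ccl21a-Rank+ TECs. These are 4 of 8 genes, where 30.9% of the 21451 genes were called in either direction, 15.4% higher in Ccl21a+Rank- and 15.4% higher in Ccl21a-Rank+ TECs. The libraries did not overlap for 5 of the 8 genes, against 59.8% of all genes tested. The median log2 fold change of the 8 genes was -0.55, beside -0.11 for all genes tested. Leaving out 1 library gave 3 to 5 called genes, with 5 without Ccl21a+Rank- replicate 1, the library highest in parathyroid markers, and 3 without Ccl21a+Rank- replicate 3. A test against a fold of 1.5 called 3 genes.

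Between Ccl21a+Rank- and Ccl21a-Rank- TECs, *Hmgcs1*, *Mvd*, *Idi1*, *Fdps* and *Fdft1* were called, each higher in Ccl21a+Rank- TECs. They are 5 of 8, where 8.02% of all genes tested were called in either direction, 4.35% of all genes tested higher in Ccl21a+Rank- and 3.66% higher in Ccl21a-Rank- TECs. The libraries did not overlap for 8 of 8 genes, against 38.8% of all genes tested, and the median log2 fold change was 0.87, beside 0.00 for all genes. Only 3 genes were called when either of the 2 Ccl21a-Rank- libraries was left out, and 5 without Ccl21a+Rank- replicate 1.

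Between Ccl21a-Rank+ and Ccl21a-Rank- TECs, 7 of the 8 genes were called, all except *Srebf2*, and each was higher in Ccl21a-Rank+ TECs. The background was 29.5% of all genes tested in either direction, 14.4% higher in Ccl21a-Rank+ and 15.1% higher in Ccl21a-Rank- TECs. The libraries did not overlap for 8 of 8 genes, against 65.8% of all genes, and the median log2 fold change was 1.45, beside 0.06 for all genes. The count of 7 did not change when any library was left out.

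Outside the 8 genes, 16 genes of the pathway were listed, 5 of the mevalonate and isoprenoid steps and 11 that act after squalene, and the order Ccl21a-Rank+ over Ccl21a+Rank- over Ccl21a-Rank- held for the mean RPKM of 11 of them. Between Ccl21a+Rank- and Ccl21a-Rank+ TECs 11 were called higher in Ccl21a-Rank+ and 1, *Sc5d*, higher in Ccl21a+Rank- TECs, where 15.4% of all genes tested were called in each direction. Against Ccl21a-Rank- TECs, 5 were called higher in Ccl21a+Rank- TECs, beside 4.35% of all genes tested, and 11 higher in Ccl21a-Rank+ TECs, beside 14.4%. The shares called lower in those comparisons were 3.66% and 15.1% of all genes tested, and the counts of the other lists are to be read against these same shares. In these 2 comparisons 0 were called lower by edgeR (1 and 2 at an unadjusted p under 0.05) and 0 by DESeq2. Without Ccl21a+Rank- replicate 1, 13 were called higher in Ccl21a-Rank+ and 1 higher in Ccl21a+Rank- TECs, and 5 higher in Ccl21a+Rank- than in Ccl21a-Rank- TECs. The last count was lower without either Ccl21a-Rank- library, and a test against a fold of 1.5 called 2 of the 16 genes in that comparison. The median log2 fold changes with all libraries were -0.82, 0.51 and 1.16 in the order of the 3 comparisons.

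*Acat2*, the cytosolic thiolase that feeds HMG-CoA synthase, and *Pmvk*, phosphomevalonate kinase, were 2.01-fold and 2.05-fold lower in Ccl21a+Rank- than in Ccl21a-Rank+ TECs. Their log2 differences between Ccl21a+Rank- and Ccl21a-Rank- TECs were 0.02 ± 0.13 and 0.06 ± 0.20 (SE) and were not called. Mevalonate kinase, *Mvk*, was not called in any comparison, at 7.00 to 9.41 RPKM in Ccl21a+Rank-, 6.09 to 6.98 in Ccl21a-Rank+ and 7.12 and 7.25 in Ccl21a-Rank- libraries. *Ggps1*, which extends farnesyl to geranylgeranyl diphosphate and so leads away from sterols, was not called either, and its mean RPKM had the reverse order of the 8 genes (log2 0.38, -0.16 and -0.53).

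After squalene, the lanosterol demethylase gene *Cyp51* was at 45.8, 32.5 and 35.3 RPKM in Ccl21a-Rank+, 12.6, 9.56 and 10.4 in Ccl21a+Rank- and 5.87 and 6.09 in Ccl21a-Rank- libraries, without overlap. It was called in all 3 comparisons (log2 -1.67, 0.86 and 2.54), as was the methylsterol oxidase gene *Msmo1* (log2 -0.80, 1.02 and 1.82). *Ebp*, the sterol isomerase, was 4.06-fold lower in Ccl21a+Rank- than in Ccl21a-Rank+ TECs and 5.72-fold higher in Ccl21a-Rank+ than in Ccl21a-Rank- TECs. *Dhcr7*, the last reductase of the Kandutsch-Russell branch, the sterol reductase *Tm7sf2* and *Hsd17b7* were also called in these 2 comparisons, at log2 -0.67, -0.85 and -0.66 in the first and 1.21, 1.37 and 1.01 in the second. The decarboxylating dehydrogenase *Nsdhl* was called between Ccl21a-Rank+ and Ccl21a-Rank- TECs (log2 1.22). *Lbr*, a nuclear envelope protein that is also a sterol reductase, was called between Ccl21a+Rank- and Ccl21a-Rank+ TECs (log2 -1.12), and *Erg28*, a scaffold of the demethylation complex, in none.

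*Sc5d*, lathosterol oxidase, was the only one of these 16 genes called higher in Ccl21a+Rank- than in Ccl21a-Rank+ TECs. It was at 19.7, 15.4 and 17.4 RPKM in Ccl21a+Rank-, 9.91, 7.12 and 7.36 in Ccl21a-Rank+ and 9.40 and 10.8 in Ccl21a-Rank- libraries. Every Ccl21a+Rank- library was above every other library, and *Sc5d* was called higher there against Ccl21a-Rank+ (2.35-fold; edgeR adjusted p = 2.93e-05) and against Ccl21a-Rank- TECs (1.74-fold; edgeR adjusted p = 0.00625).

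**Figure D2:**
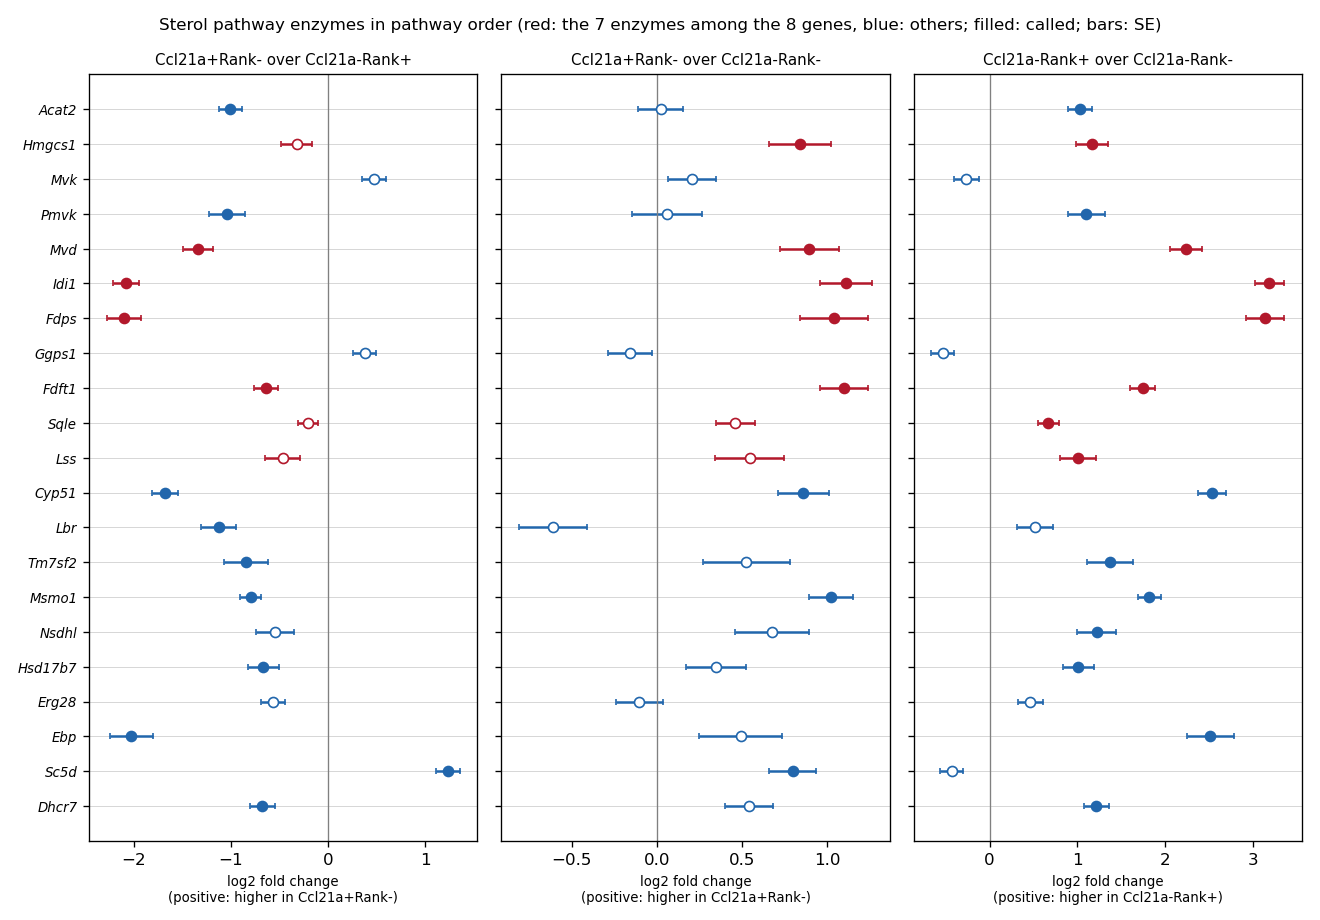
Log2 fold change (horizontal axes, with SE bars) of 21 sterol pathway genes in pathway order from top to bottom, in the 3 comparisons, with the 7 enzymes among the 8 genes in red and filled points for called genes. The axes have different ranges. In the comparisons with Ccl21a-Rank+ TECs, the largest shifts lie at *Idi1*, *Fdps*, *Cyp51* and *Ebp*. *Sc5d*, *Mvk* and *Ggps1* lie on the opposite side in the comparison of Ccl21a+Rank- with Ccl21a-Rank+ TECs.

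Among 6 genes that control SREBP processing, *Insig1*, which retains the SCAP complex and is itself a target of SREBP2, had the order of the 8 genes. *Insig1* was at 28.9, 19.8 and 28.9 RPKM in Ccl21a-Rank+, 11.7, 8.15 and 12.0 in Ccl21a+Rank- and 6.05 and 7.20 in Ccl21a-Rank- libraries and was called in all 3 comparisons (log2 -1.17, 0.68 and 1.85). *Insig2*, its paralog, was called higher in Ccl21a+Rank- than in Ccl21a-Rank- TECs (log2 0.81). *Scap* (log2 -0.41, 0.14 and 0.55) and the protease genes *Mbtps1* and *Mbtps2* were not called in any comparison.

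*Srebf1*, whose products favour fatty acid synthesis, was lowest where *Idi1* and *Fdps* were highest. It was at 33.1, 33.1 and 31.9 RPKM in Ccl21a-Rank+, 80.5, 83.1 and 87.7 in Ccl21a+Rank- and 73.9 and 80.8 in Ccl21a-Rank- libraries. *Srebf1* was 2.78-fold higher in Ccl21a+Rank- (edgeR adjusted p = 2.73e-06) and 2.57-fold higher in Ccl21a-Rank- than in Ccl21a-Rank+ TECs (edgeR adjusted p = 8.6e-06), and its difference between Ccl21a+Rank- and Ccl21a-Rank- TECs was not called (log2 0.12 ± 0.11 SE).

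Of 10 genes for sterol uptake and transport, 5 were called higher in Ccl21a-Rank+ and 1, *Scarb1*, in Ccl21a+Rank- TECs in their comparison, where 15.4% of all genes tested were called in each direction. Against Ccl21a-Rank- TECs, 3 were called higher in Ccl21a+Rank- TECs, and 6 were called higher and 1 lower in Ccl21a-Rank+ TECs. The sterol carrier gene *Stard4* was at 16.6, 13.9 and 13.3 RPKM in Ccl21a-Rank+, 3.52, 2.01 and 2.66 in Ccl21a+Rank- and 1.04 and 0.800 in Ccl21a-Rank- libraries. The populations did not overlap, and *Stard4* was called in all 3 comparisons (log2 -2.30, 1.55 and 3.85). *Tmem97*, whose product binds NPC1, was called higher in Ccl21a-Rank+ TECs against both other populations (log2 -2.38 and 1.99), and *Npc1*, which exports cholesterol from lysosomes, against Ccl21a-Rank- TECs (log2 0.60). *Npc2*, the soluble partner of *Npc1*, was called higher in Ccl21a+Rank- than in Ccl21a-Rank- TECs (log2 1.03). *Lrp8* (log2 -4.25 and 4.02) and the HDL receptor gene *Scarb1* (log2 0.62 and -1.17) were also called in both comparisons with Ccl21a-Rank+ TECs and were named after their values were seen.

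**Figure D3:**
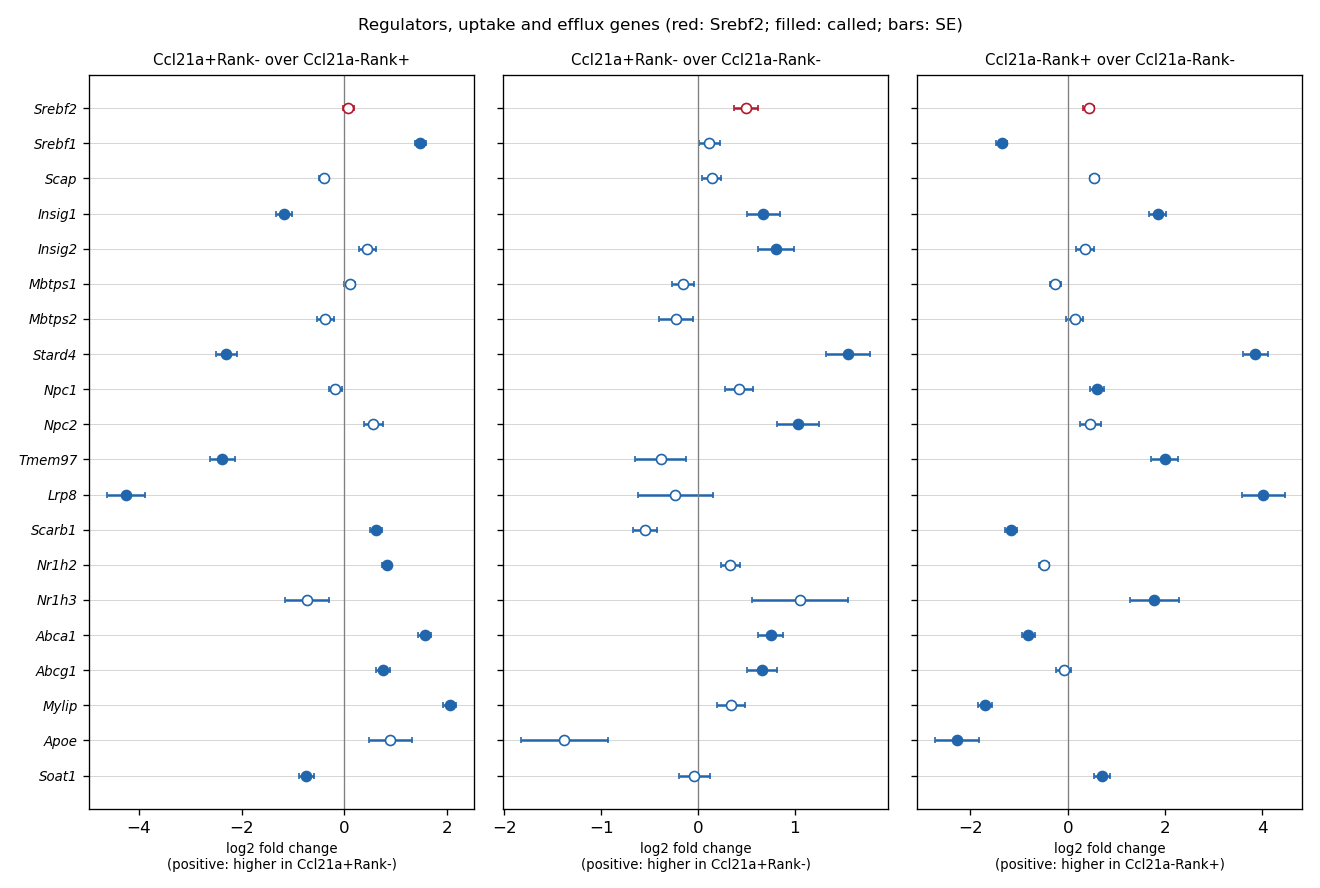
Log2 fold change (horizontal axes, with SE bars and different ranges) of *Srebf2* (red) and 19 genes of SREBP processing, sterol uptake and sterol efflux in the 3 comparisons, with filled points for called genes. *Insig1* and *Stard4* are called in all 3 comparisons in the direction of the sterol synthesis genes, whereas *Srebf1*, *Abca1* and *Mylip* lie on the opposite side in the comparisons with Ccl21a-Rank+ TECs.

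Genes of the liver X receptors (LXR), which sense oxysterols, and of sterol efflux and esterification differed in direction among themselves between Ccl21a+Rank- and Ccl21a-Rank+ TECs. Of 9 such genes, 4 were called higher in Ccl21a+Rank- and 1 in Ccl21a-Rank+ TECs and 4 were not called, where 15.4% of all genes tested were called in each direction. *Mylip*, an LXR target that encodes a ubiquitin ligase, was at 31.4, 30.8 and 39.0 RPKM in Ccl21a+Rank-, 26.2 and 26.8 in Ccl21a-Rank- and 7.74, 9.73 and 8.92 in Ccl21a-Rank+ libraries. Its differences from Ccl21a-Rank+ TECs were 4.13-fold and 3.26-fold (edgeR adjusted p = 2.05e-06 and 1.01e-05). The cholesterol exporter gene *Abca1* was called in all 3 comparisons, highest in Ccl21a+Rank- and lowest in Ccl21a-Rank+ TECs (log2 1.56, 0.75 and -0.81). *Abcg1* was called higher in Ccl21a+Rank- TECs in both of their comparisons (log2 0.75 and 0.66) and *Nr1h2*, which encodes LXR beta, higher in Ccl21a+Rank- than in Ccl21a-Rank+ TECs (log2 0.82). *Soat1*, which esterifies cholesterol for storage, was higher in Ccl21a-Rank+ TECs (log2 -0.74 and 0.70), and *Apoe* was lower in Ccl21a-Rank+ than in Ccl21a-Rank- TECs (log2 -2.27). In total, 2 of the 9 genes were called higher in Ccl21a+Rank- than in Ccl21a-Rank- TECs. Another 2, *Soat1* and *Nr1h3* (log2 1.78), which was named after its value was seen, were called higher and 3 lower in Ccl21a-Rank+ than in Ccl21a-Rank- TECs.

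Of 9 fatty acid synthesis genes, 2 were called higher in Ccl21a+Rank- and 2 higher in Ccl21a-Rank+ TECs, where 15.4% of all genes tested were called in each direction. *Scd1*, a stearoyl-CoA desaturase, was called in all 3 comparisons with the order of the sterol genes (log2 -2.21, 1.11 and 3.32) and *Acss2*, acetyl-CoA synthetase, in 2 (log2 -2.07 and 1.66). *Fasn* (log2 0.60) and *Elovl6* (log2 1.03) were higher in Ccl21a+Rank- than in Ccl21a-Rank+ TECs, although DESeq2 did not call *Fasn*, nor *Scarb1* above, past the fold threshold. *Elovl6* was highest in Ccl21a-Rank- TECs, against both Ccl21a+Rank- (log2 -0.75) and Ccl21a-Rank+ TECs (log2 -1.78), and *Acly* was higher in Ccl21a-Rank+ than in Ccl21a-Rank- TECs (log2 0.77). Against Ccl21a-Rank- TECs, 1 gene was called higher and 1 lower in Ccl21a+Rank- TECs, and 3 were called higher and 1 lower in Ccl21a-Rank+ TECs.

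Of 12 genes in the isoprenoid branches that start from the product of *Fdps*, 3 were called higher in Ccl21a-Rank+ than in Ccl21a+Rank- TECs, *Nus1* of dolichol synthesis, *Rabggta* of Rab prenylation and *Pdss1* of ubiquinone synthesis (log2 -0.63, -0.79 and -0.93), where 15.4% of all genes tested were called in that direction. Against Ccl21a-Rank- TECs, 1 gene, *Rabggta* (log2 0.93), was called higher and 2, *Fnta* (log2 -0.90) and *Pdss2* (log2 -0.76), lower in Ccl21a-Rank+ TECs, where 14.4% of all genes tested were called higher and 15.1% lower. The other 9 of the 12 were not called in the first comparison, and 0 of 12 were called between Ccl21a+Rank- and Ccl21a-Rank- TECs by edgeR (1 at an unadjusted p under 0.05) or by DESeq2. Of 6 genes of oxysterol and sterol catabolism, 2 were called higher in Ccl21a-Rank+ than in Ccl21a+Rank- TECs, beside the same 15.4% of all genes tested. *Cyp27a1*, sterol hydroxylase, was at 4.88, 3.41 and 3.37 RPKM in Ccl21a-Rank+ and at most 0.212 in all other libraries. *Sult2b1*, a sterol sulfotransferase, was at 1.54, 0.682 and 0.930 RPKM in Ccl21a-Rank+ and at most 0.042 elsewhere. Both were called higher in Ccl21a-Rank+ than in Ccl21a-Rank- TECs too, where *Cyp7b1* was lower (log2 -0.75).

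Markers of proliferation and of other cell types were measured beside these results. The 10 proliferation genes summed to 181, 242 and 223 RPKM in Ccl21a-Rank+, 136 and 171 in Ccl21a-Rank- and 76.3, 65.7 and 82.9 in Ccl21a+Rank- libraries, with *Pcna* the most abundant. All 10 were called lower in Ccl21a+Rank- than in Ccl21a-Rank+ TECs, and 9 were called lower in Ccl21a+Rank- than in Ccl21a-Rank- TECs, all except *Mki67*, in the comparison where 5 of the 8 sterol synthesis genes were called higher in Ccl21a+Rank- TECs. Between Ccl21a-Rank+ and Ccl21a-Rank- TECs, 2 were called higher in Ccl21a-Rank+ TECs, *Rrm2* (log2 1.14) and *Cdk1* (log2 0.79).

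The summed levels of the myeloid and of the mesenchymal markers were also highest in Ccl21a-Rank+ libraries. The 6 myeloid and dendritic cell markers summed to 59.5, 18.1 and 20.9 RPKM there, most of it *Lyz2*, and to 0.0714 to 0.264 in the other 5 libraries, where *Adgre1* was at 0 in Ccl21a+Rank- replicates 2 and 3. The 6 mesenchymal markers summed to 47.1, 23.3 and 29.2 RPKM in Ccl21a-Rank+ libraries, with *Col1a1* the most abundant, and to 1.79 to 3.80 in the others. The 3 myeloid genes *Lyz2*, *Adgre1* and *Csf1r* and the 4 mesenchymal genes *Col1a1*, *Dcn*, *Pdgfrb* and *Col1a2* were called higher in Ccl21a-Rank+ TECs against both other populations. The myeloid genes *Itgam*, *Itgax* and *Flt3* and the mesenchymal genes *Pdgfra* and *Col3a1* were called in no comparison. *Flt3* and *Itgam* averaged only 0.608 and 0.590 RPKM in Ccl21a-Rank+ TECs, under the 1 RPKM rule. Both were higher there than in Ccl21a+Rank- TECs (log2 -7.33 and -6.02; edgeR adjusted p = 5.92e-05 and 0.00285). *Itgax* had the same direction (log2 -2.70; edgeR adjusted p = 0.0863). *Pdgfra* was at 0.154 to 0.262 RPKM in Ccl21a+Rank- and 0.0303 to 0.122 in Ccl21a-Rank+ libraries, a log2 fold change of 1.67 opposite in direction to the other 5 mesenchymal genes (edgeR adjusted p = 0.0283), below the level of 1 RPKM that a call required. Between Ccl21a+Rank- and Ccl21a-Rank- TECs 0 genes of either list were called by edgeR (2 myeloid and 1 mesenchymal at an unadjusted p under 0.05) or by DESeq2. The 8 thymocyte markers summed to 8.79 to 19.8 RPKM in Ccl21a-Rank+, 4.06 to 10.4 in Ccl21a+Rank- and 3.04 and 3.40 in Ccl21a-Rank- libraries, with *Rag1* the most abundant, and 2 of them were called higher in Ccl21a-Rank+ than in Ccl21a+Rank- TECs (*Lck* and *Cd4*) and 4 higher than in Ccl21a-Rank- TECs. The 4 B cell markers, led by *Cd79b*, reached 9.89 RPKM in Ccl21a-Rank+ and 0.902 in the other libraries, and the 4 endothelial markers, led by *Tek*, reached 4.04 and 0.450. *Cd79b* and *Tek* were the only genes of their lists called, higher in Ccl21a-Rank+ TECs against both other populations. All 4 parathyroid markers were called higher in Ccl21a+Rank- TECs against both other populations, and between those *Casr* was higher and *Pth* lower in Ccl21a-Rank+ TECs. Of 11 thymic epithelial markers, 7 were called higher and 3 lower in Ccl21a+Rank- than in Ccl21a-Rank+ TECs, 4 higher in Ccl21a+Rank- than in Ccl21a-Rank- TECs, and 6 higher and 5 lower in Ccl21a-Rank+ than in Ccl21a-Rank- TECs. Among the markers at 0 were *Cd79a* in all 3 Ccl21a+Rank- libraries and *Ms4a1* in both Ccl21a-Rank- libraries. *Aire*, 1 of the 11 thymic epithelial markers, was at 131, 94.1 and 114 RPKM in Ccl21a-Rank+ and at most 0.81 in the other libraries. The paper describes ectopic transcription across the genome in medullary TECs that express Aire. In bulk libraries, RNA of admixed cells and ectopic RNA of TECs cannot be told apart. The part of proliferating cells, admixed cells or ectopic transcription in the differences of the sterol genes was not tested.

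**Figure D4:**
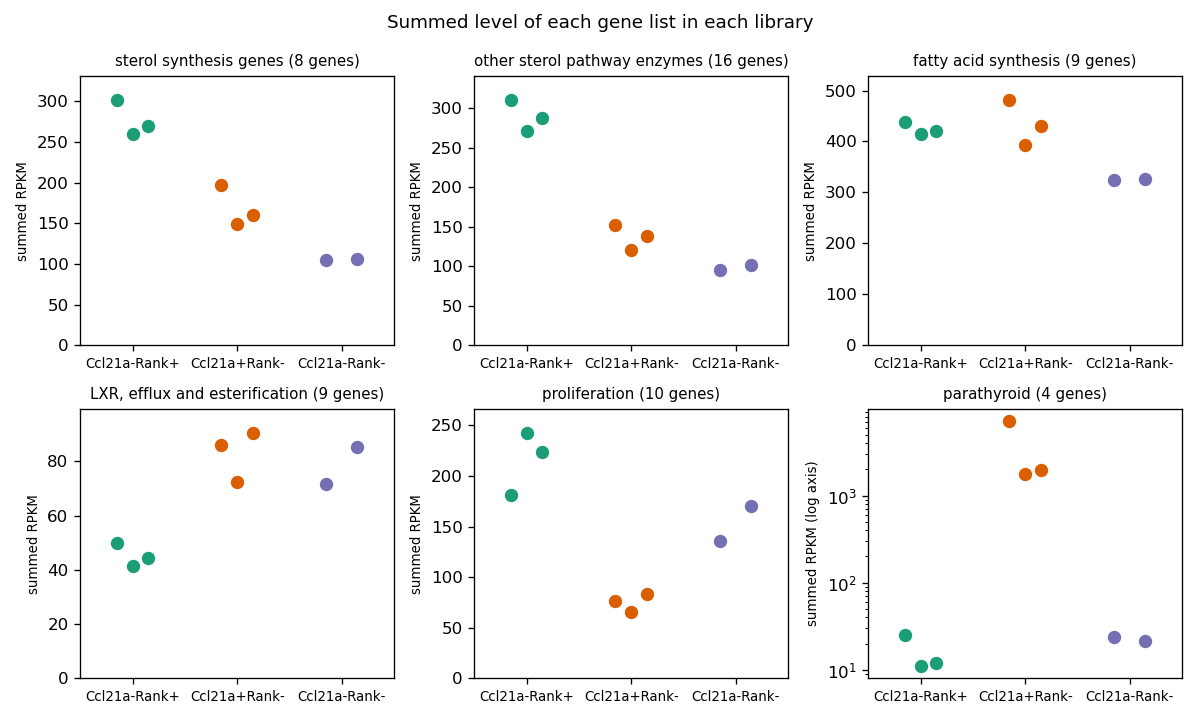
Summed RPKM of 6 gene lists, with 1 point per library, linear vertical axes from 0 except the logarithmic axis for the parathyroid markers. The sterol lists fall from Ccl21a-Rank+ to Ccl21a+Rank- to Ccl21a-Rank- libraries, whereas the proliferation list is lowest in Ccl21a+Rank- libraries at 65.7 to 82.9 RPKM and the parathyroid list is highest there at 1750 to 7122 RPKM.

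Among the 8 genes, levels went together across the 8 libraries to different degrees. Over the 28 pairs of genes, Pearson's r of log2 CPM (counts scaled to the library size) ranged from 0.597 for *Srebf2* with *Fdps* to 0.997 for *Fdps* with *Idi1*, with a median of 0.904. The r of a gene with the mean of the other 7 was 0.760 for *Srebf2* and 0.929 to 0.991 for the enzymes. The points share 3 populations and their library depths, so these values mostly restate the differences between populations. Among 11675 other genes that averaged 5 CPM or more in a population, the 10 most like the mean of the 8 genes had r of 0.990 to 0.993 over the 8 libraries. Among them were *Ksr2*, *Dusp18*, *Zdhhc23*, *Cyfip2*, *Tmc6*, *Atp6v0e2*, *Nfkbie* and *Rnf19b*. *Nfkbie*, which encodes an inhibitor of NF-kappaB, was at 64.9, 60.2 and 60.3 RPKM in Ccl21a-Rank+, 43.1, 34.3 and 33.5 in Ccl21a+Rank- and 17.2 and 19.9 in Ccl21a-Rank- libraries. *Cyfip2* was at 13.2, 9.39 and 10.02 RPKM, at 5.44, 1.70 and 1.79, and at 0.315 and 0.468 in the same order of populations.

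Some counts could include reads of other genes. The deposited counts of *Idi1* and *Fdps* were not whole in all 8 libraries, which means that reads were divided with other genes, and the 2 genes are uncertain to that extent. The exons of *Fdft1* overlap those of *Ctsb* on the other strand over 774 bases, and the strand setting of the counting is not given in the sources used here. *Ctsb*, a lysosomal protease, was not called in any comparison (edgeR adjusted p = 0.740, 0.719 and 0.387). The exons of *Fdps* overlap *Gm43738* over 1124 bases on the same strand, and *Gm43738* had 0 counts in every library. *Idi2*, a paralog of *Idi1* named after its values were seen, was at 8.57, 3.91 and 5.78 RPKM in Ccl21a-Rank+ and at most 0.026 in the other libraries.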

How the data were processed

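RNA-sequencing of 8 libraries from 3 sorted populations was analysed. The authors deposited 1 table of expected counts per gene, estimated by RSEM, without normalization. The submitters' processing notes name bcl2fastq 2.20, Trimmomatic, STAR 2.5.1, RSEM 1.3.1 and mm10, whereas the published methods name CLC Genomics Workbench. The methods name a TruSeq stranded kit and the sample records a NEBNext directional kit. All 55450 genes matched GENCODE M21 (GRCm38), which gave exon lengths for RPKM over the library total.

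Expected counts were rounded and tested in edgeR 4.0.16 (R 4.3.3) with the quasi-likelihood test, after filterByExpr and TMM scaling, in 1 fit of 3 population means. Benjamini-Hochberg adjustment covered all 21451 genes tested. Standard errors came from the quasi-likelihood F. Between 4.47% and 5.94% of values per library were not whole. *Gm26917* took 6.89% to 19.4% and *Gm42418* 1.47% to 10.7% of counts. Replicates differed by more than sampling noise, and each counted as 1. The scripts were tested on simulated data. Reads are not molecules.

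The members and gene lists were chosen with earlier results of these data known. Genes named were all 8, every other pathway and SREBP processing gene, and of each other list up to 4 called genes per comparison with the highest mean RPKM. The 10 most similar genes were taken by Pearson's r, leaving out predicted genes. Some listed genes are counted in their lists but not reported singly here. Alternatives were DESeq2 size factors and Wald test (1.42.0), upper-quartile scaling, other filters and thresholds, only the libraries compared, a replicate block, other RPKM totals and leaving out each library.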

Additional observations from a re-analysis of the deposited data

How the results depend on the processing

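Of 384 results of single genes under alternative settings, 369 kept their direction and side of the threshold. The sign of *Srebf2* between Ccl21a+Rank- and Ccl21a-Rank+ TECs, 0.07 in the reported fit, was reversed to -0.01865 with DESeq2 size factors, -0.009921 with upper-quartile scaling, -0.01827 with DESeq2's Wald test and -0.06736 where each library had at least 10 counts (adjusted p between 0.347 and 0.991 over all settings). Between Ccl21a+Rank- and Ccl21a-Rank- TECs, a test against a fold of 1.5 called 2 of the 8 genes, 2 of the 16 other pathway genes and 676 of all genes. Leaving out 1 library gave 3 to 5, 2 to 6 and 657 to 2066 genes, lowest for all 3 without a Ccl21a-Rank- library, where the lone library left is assumed to vary like the others. The adjusted p alone called 11516 genes between Ccl21a+Rank- and Ccl21a-Rank+ TECs and 10501 between Ccl21a-Rank+ and Ccl21a-Rank- TECs. Between Ccl21a+Rank- and Ccl21a-Rank+ TECs, leaving out 1 library gave 11 to 14 of the 16 genes. *Lss* was called between Ccl21a+Rank- and Ccl21a-Rank+ TECs (log2 -0.61) and *Srebf2* between Ccl21a-Rank+ and Ccl21a-Rank- TECs (log2 0.63) with at least 10 counts in each library, and *Lss* between Ccl21a+Rank- and Ccl21a-Rank- TECs by DESeq2's Wald test (adjusted p = 0.0498). DESeq2 size factors moved the median log2 fold change of all genes between Ccl21a-Rank+ and Ccl21a-Rank- TECs by 0.14, and upper-quartile scaling by 0.12. Over totals without *Gm26917* and *Gm42418*, the mean RPKM of the 8 genes rose unequally between populations. It was 25.5% to 25.9% higher in Ccl21a-Rank+, 18.6% to 19.4% in Ccl21a+Rank- and 16.2% to 17.8% in Ccl21a-Rank- TECs. The cause of these changes was not tested.

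Libraries of different populations share replicate numbers, and the sources used here do not state whether same-numbered libraries share embryos or a sort. Deviations of same-numbered Ccl21a+Rank- and Ccl21a-Rank+ libraries from their population means had correlations of 0.126, 0.0485 and 0.0707 across genes, each the highest for its Ccl21a+Rank- library among the Ccl21a-Rank+ libraries. The same-numbered pairs with Ccl21a-Rank- libraries had correlations of -0.0528 and -0.117 for Ccl21a+Rank- and -0.0519 and -0.0411 for Ccl21a-Rank+ TECs. With the replicate number as a block, 4, 6 and 7 of the 8 genes were called in the 3 comparisons, the sixth being *Lss* between Ccl21a+Rank- and Ccl21a-Rank- TECs (edgeR adjusted p = 0.0404). The block called 12, 5 and 11 of the other pathway genes, and 6617, 1913 and 6324 of all genes.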
